A study of Mus musculus with 40 samples.

Results

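The intercalated disc is the structure that joins cardiomyocytes end to end, and the 10 genes described here encode proteins of its junctions. They were taken by name: *Gja1* and *Gja5* (connexins of gap junctions), *Dsp*, *Dsg2*, *Dsc2*, *Pkp2* and *Jup* (desmosome), *Cdh2* and *Ctnna3* (adherens junction) and *Tjp1* (a scaffold protein). Each of the 10 had 1 row in the table of male hearts, which listed 17646 genes, and 1 row in the table of female hearts, which listed 17223, with 17038 genes in both. PolyA RNA was sequenced from the hearts of adult mice (the study's text names left ventricle, the labels heart), and 38 libraries had labels that all gave the same group. Control mice (labelled WT) were littermates that carried the α-MHC-MerCreMer transgene without *Rosa26-Il11* and received tamoxifen. CM-Il11-Tg mice were heterozygous for both transgenes and were taken 1, 3 and 6 weeks after tamoxifen, or without tamoxifen (uninduced).

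The α-MHC promoter restricts the tamoxifen-activated Cre recombinase to cardiomyocytes, where it switches on *Il11*, a cytokine of the IL-6 family. All 5 groups therefore carried MerCreMer. The uninduced hearts differed from the induced hearts in *Il11* and also in tamoxifen, and the labels call both the control and the uninduced hearts baseline, with no week. Groups held 4 libraries per sex, except male controls and male hearts at 6 weeks, which held 3 each because 2 male libraries had labels that contradict each other. The tables of the sexes were scaled separately, so every comparison is within a sex and a difference between the sexes was not tested. *Il11* ran from 0 to 0.166 CPM (read counts made relative to depth and scaled by the authors) in control hearts, from 15.5 to 49.1 CPM in uninduced hearts and from 328 to 819 CPM in induced hearts.

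Gap junctions are clusters of channels, made of connexins, that pass current between neighbouring cardiomyocytes. Desmosomes anchor the desmin filaments of one cell to those of the next. Adherens junctions do the same for actin, and in the mammalian heart both kinds mix in the area composita. The loss of desmosomal proteins is a known cause of arrhythmogenic cardiomyopathy, and lower or displaced connexin 43 is a known feature of failing myocardium. Most of these genes are also used by endothelial, epithelial or stromal cells.

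The fewest reads on any of the 10 genes in a library was 126 (*Gja5*), and *Dsp* had at least 10513. Male libraries held 16663513 to 65333832 reads on the genes listed, and female libraries 19147947 to 30929192. All 12 cardiomyocyte markers were listed, and their summed level was 61570 to 74400 CPM in male controls and 46260 to 66490 CPM in female controls. Of the atrial markers, *Sln* and *Bmp10* were not listed in either sex and *Myl7* was not listed in males. *Myl4* lay between 0.676 and 2.58 CPM in males, and in females *Myl7* and *Myl4* together stayed at or below 3.143 CPM except in 2 libraries described with *Gja5*.

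In GRCm39 the genes lie at chr10:56253241-56278609 on the plus strand (*Gja1*), chr3:96812009-96984732 on the plus strand (*Gja5*), chr7:64945898-65177529 on the minus strand (*Tjp1*), chr11:100259784-100291103 on the minus strand (*Jup*), chr13:38335230-38382553 on the plus strand (*Dsp*), chr16:16031144-16090586 on the plus strand (*Pkp2*) and chr10:63265877-64846348 on the plus strand (*Ctnna3*), and *Dsg2*, *Dsc2* and *Cdh2* lie on chromosome 18. None shares exon bases with a gene on its own strand. On the other strand the overlap is 5.56% of exon bases for *Dsp*, 3.44% for *Dsg2*, 2.77% for *Gja5*, 1.92% for *Ctnna3* and 1.16% for *Gja1*, and whether reads were counted by strand is not given in the sources used here.

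In control hearts the levels per kilobase of annotated exon ordered the genes in nearly the same way in both sexes. *Dsp*, which links the desmosome to desmin, was highest, at 139.5 ± 28.01 CPM per kb in males (SD, n = 3) and 72.8 ± 14.2 in females (SD, n = 4). *Cdh2* (N-cadherin), *Jup* (plakoglobin) and *Gja1* (connexin 43) followed, at 32.9, 29.4 and 28.1 CPM per kb in males and 28.6, 27.0 and 20.9 in females, and each overlapped with the next in both sexes. *Tjp1*, *Pkp2*, *Dsg2* and *Dsc2* lay between 5.24 and 13.8 CPM per kb. *Gja5* (connexin 40) and *Ctnna3* (αT-catenin) were lowest, at 1.27 and 1.03 CPM per kb in males and 1.22 and 0.786 in females, and these 2 genes overlapped in males only.

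**Figure D1:**
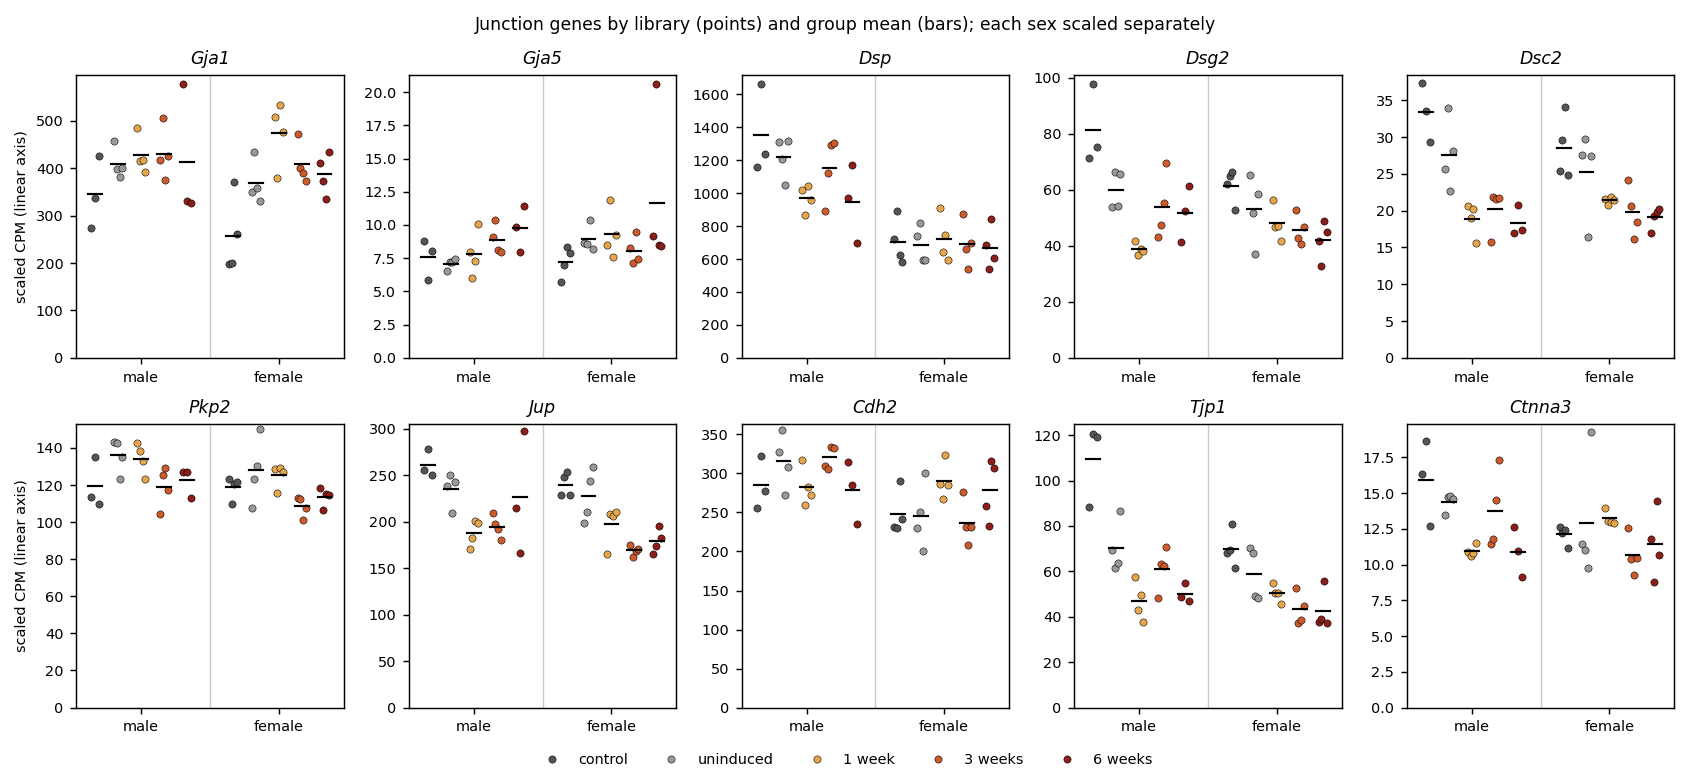
Level of each of the 10 genes in scaled CPM on a linear axis from 0, by library (points) and group mean (bars), for male hearts on the left and female hearts on the right of each panel. *Tjp1* lay at or below 57.3 CPM in every male library of weeks 1 and 6, under the lowest male control of 88.5 CPM, while *Gja1* in females rose from 198 to 372 CPM in controls to between 380.0 and 533 CPM at 1 week.

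On the scale the authors deposited, induced hearts of both sexes held less mRNA of *Tjp1* at each week. *Dsg2* and *Dsc2* were lower at each week in males and at 3 and 6 weeks in females. *Jup* was lower at 1 and 3 weeks in males and at each week in females, and *Gja1* was higher at each week in females. In males 5 of the 10 genes were called at 1 week (adjusted p under 0.05 in a limma fit of log2(CPM + 0.5) across all genes), 4 at 3 weeks and 5 at 6 weeks, all of them lower than control. Over all genes tested, 33.5%, 21.3% and 27.1% were called at those weeks in either direction, and 14.6%, 8.1% and 10.9% were called lower. None was called higher in males, where 18.9%, 13.2% and 16.2% of all genes were. In females 3, 5 and 6 of the 10 were called, against 28.4%, 31.3% and 42.7% of all genes. The female calls were 1, 1 and 2 higher (15.3%, 16.8% and 21.7% of all genes) and 2, 4 and 4 lower (13.1%, 14.5% and 21.0%). The median log2 fold change of the 10 genes was -0.47, -0.22 and -0.38 in males and 0.06, -0.16 and -0.09 in females, where the median of all genes lay between -0.02 and 0.02. Of the 5 desmosomal genes, 3 were called lower at each week in males and 1, 3 and 3 in females, with medians of -0.47, -0.43 and -0.53 and of -0.28, -0.43 and -0.42. Without male control replicate 3 the male counts were 3, 2 and 2, and without female control replicate 3 the female counts at 1 and 3 weeks were 1 and 3. The female count at 3 weeks was also 3 without 3-week replicate 3. Values of the 10 genes did not overlap between control and induced hearts for 6, 4 and 4 genes in males, where 40.9%, 33.1% and 37.7% of all genes did not, and for 5 at each week in females, against 32.8%, 37.5% and 37.5%. With a log2 fold change of at least 1 required as well, 2, 0 and 1 of the 10 were called in males, where 8.07%, 6.75% and 8.5% of all genes were, and none in females, where 7.35%, 8.04% and 11.7% were.

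**Figure D2:**
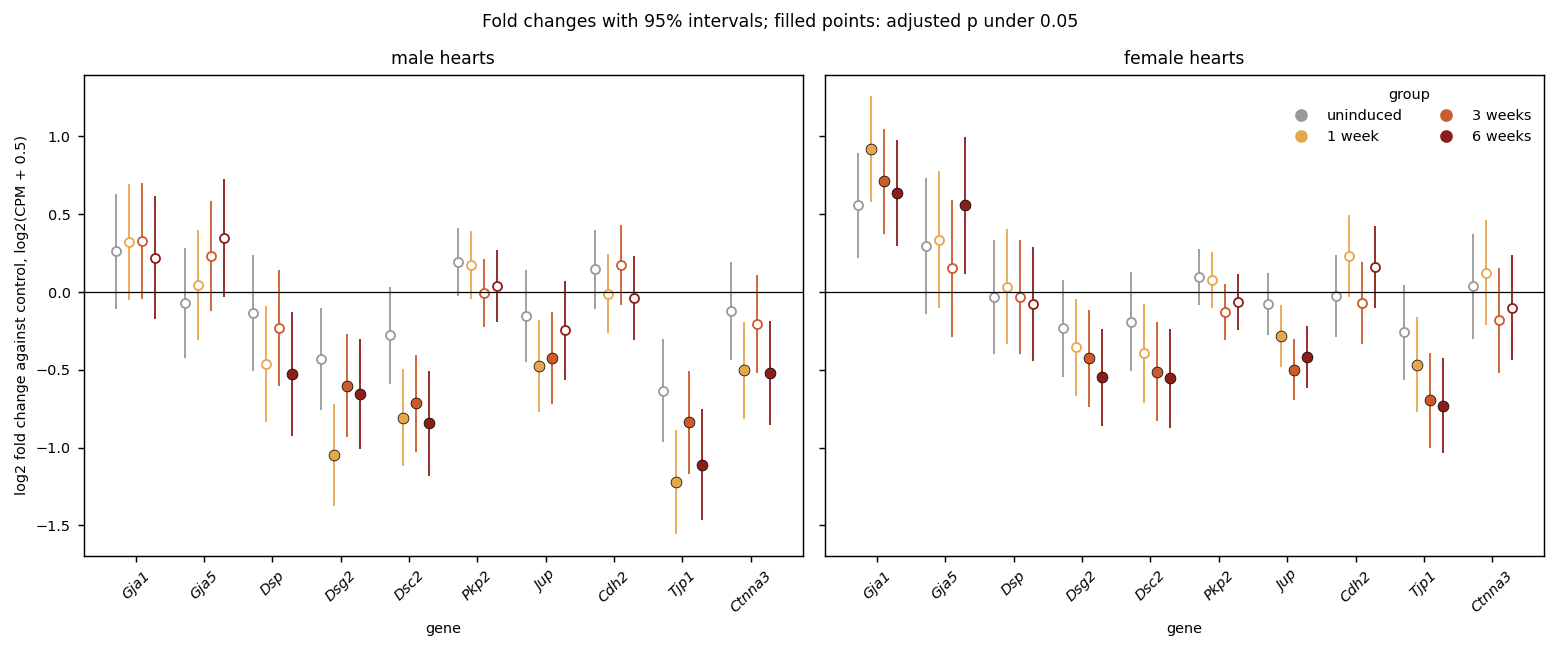
Log2 fold change against control hearts of the same sex, on the log2(CPM + 0.5) scale, with 95% intervals for the uninduced hearts and for 1, 3 and 6 weeks after tamoxifen. Filled points have an adjusted p under 0.05: *Tjp1* reached -1.22 at 1 week in males and *Gja1* reached 0.92 at 1 week in females, while no uninduced point is filled.

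How far these falls extend depends on the scaling. The deposited values of a library do not sum to the same total: female induced libraries summed to 848402 to 985319 and female controls to 1181923 to 1196278. In males the sums were 817395 to 984872 at 1 and 3 weeks, 906746 to 1165099 at 6 weeks and 1063756 to 1193422 in controls, so that only the 6-week libraries overlapped with control. When values were instead scaled to the total reads, the median log2 fold change of all genes, close to 0 on the deposited scale, was 0.33, 0.23 and 0.16 in males and 0.28, 0.30 and 0.34 in females at 1, 3 and 6 weeks. With values scaled to the mean of the 12 cardiomyocyte markers it was 0.17, 0.30 and 0.37 in males and 0.36, 0.23 and 0.37 in females. At 6 weeks the deposited scale called 2742 male genes higher and 1838 lower, total reads 3606 and 595, and cardiomyocyte markers 5779 and 287. In females at 6 weeks the corresponding numbers were 3678 and 3567, 8356 and 1045, and 7292 and 751. At 1 week males gave 3196 and 2475, 6410 and 646, and 3779 and 898, and females 2586 and 2227, 7001 and 583, and 6333 and 331. At 3 weeks males gave 2238 and 1372, 3876 and 395, and 4222 and 277, and females 2848 and 2457, 7108 and 602, and 3976 and 547. Of the 5, 4 and 5 junction genes called lower in males, 3, 2 and 3 were still called with total reads, and 3, 0 and 1 with cardiomyocyte markers. None of the 2, 4 and 4 female falls was called under either scaling, whereas all of the female rises were. Both scalings raised the median of all genes, so falls tended to shrink and rises to grow whatever the gene. A rise that kept its call under them is therefore no test of that rise. Values under these scalings, here and below, are to be read against those medians. Summed cardiomyocyte markers were 41100 to 52770 CPM at 6 weeks in males, below the male controls given above, and 39990 to 50870 CPM in females, overlapping the controls, and 2 of 12 (male) and 6 of 12 (female) were called lower. In bulk tissue, fewer cardiomyocytes and less mRNA per cardiomyocyte cannot be told apart. Of the other cell types, 7 of 8 fibroblast markers and 7 of 7 macrophage markers were called higher at 6 weeks in both sexes, and 4 (male) and 5 (female) of 9 endothelial markers were called lower. Their part in the values of the junction genes was not tested.

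**Figure D3:**
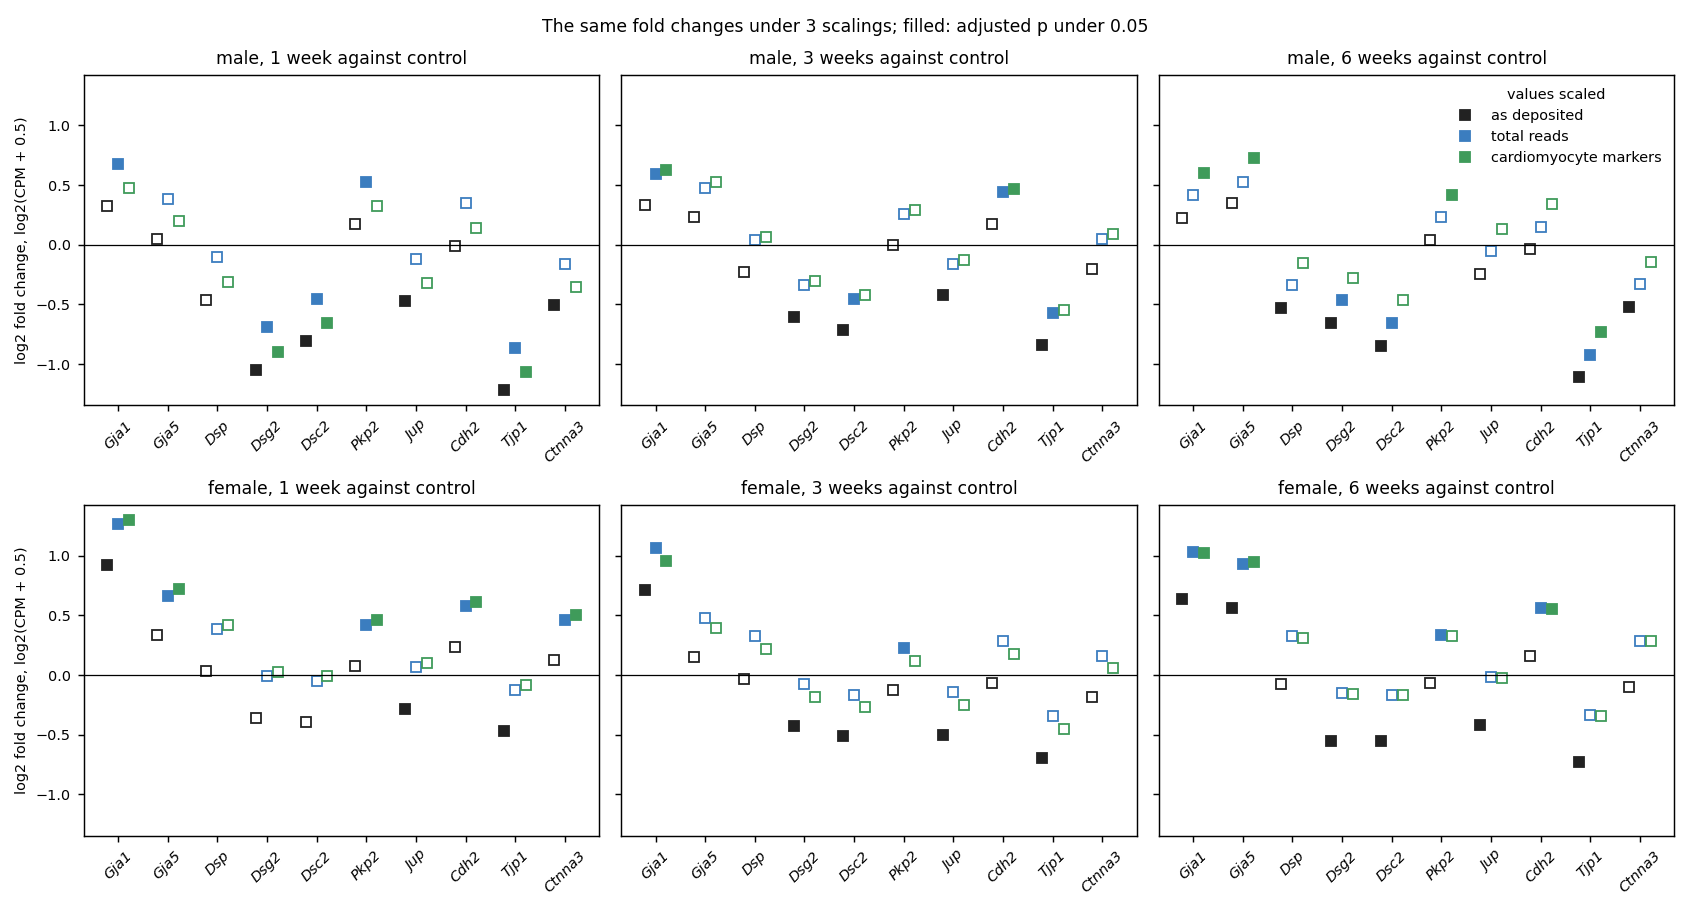
Log2 fold change of each gene against control (vertical axis, log2(CPM + 0.5)) by sex and week, with the values as deposited, scaled to total reads, or scaled to 12 cardiomyocyte markers. Filled squares have an adjusted p under 0.05. Other scalings lift nearly every square: *Tjp1* in males at 1 week stays filled, at -1.22, -0.86 and -1.07, while the filled female squares below 0 become open.

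*Tjp1* encodes ZO-1, a scaffold that binds connexin 43 and ties junctions to actin. In male hearts it stood at 88.5, 121 and 119 CPM in controls, at 57.3, 43.02, 49.5 and 37.5 CPM at 1 week, at 48.1, 63.1, 62.1 and 70.6 CPM at 3 weeks and at 48.5, 54.8 and 46.9 CPM at 6 weeks. Every induced male library lay below every control. The log2 fold changes at 1, 3 and 6 weeks were -1.22 ± 0.16 (SE), -0.84 ± 0.16 and -1.11 ± 0.17 (adjusted p = 1.08e-05, 0.000678 and 6.63e-05), and each call held when any 1 library was left out. At 1 and 6 weeks it also held under both other scalings (-0.86 and -1.07 at 1 week, -0.92 and -0.73 at 6 weeks), while at 3 weeks it held with total reads (-0.57, adjusted p = 0.0173) and not with cardiomyocyte markers (-0.54, adjusted p = 0.0604).

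In female hearts *Tjp1* stood at 68.1, 69.5, 80.8 and 61.4 CPM in controls and at 37.6, 38.8, 55.6 and 37.5 CPM at 6 weeks, with no overlap. The log2 fold change was -0.47, -0.70 and -0.73 at 1, 3 and 6 weeks, each ± 0.15 (adjusted p = 0.0212, 0.00108 and 0.000499). At 1 week the call was lost without control replicate 3 (-0.40, adjusted p = 0.0698) or without 1-week replicate 4 (-0.42, adjusted p = 0.061). Under total reads the female values were -0.12, -0.34 and -0.34 and under cardiomyocyte markers -0.09, -0.45 and -0.34, with the lowest adjusted p at 0.0784.

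*Gja1* encodes connexin 43, the main gap junction channel of working ventricular myocardium. In females it stood at 198, 199, 372 and 260.5 CPM in controls, at 508, 380.0, 533 and 475 CPM at 1 week, at 473, 400.2, 390.3 and 373 CPM at 3 weeks and at 411, 372, 335 and 435 CPM at 6 weeks. Control replicate 3 was the highest of the controls and reached the induced range, so that the groups overlapped at 6 weeks only. At 1, 3 and 6 weeks the log2 fold changes were 0.92, 0.71 and 0.63, each ± 0.16 (adjusted p = 0.000222, 0.00216 and 0.00389). Each call held when any 1 library was left out. The values were larger under both other scalings (0.96 to 1.30), which also raised the median of all genes.

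In males *Gja1* stood at 274, 337 and 426 CPM in controls and at 578, 330.4 and 328 CPM at 6 weeks, and all 3 weeks overlapped with control. The male log2 fold changes were 0.32, 0.33 and 0.22 (95% intervals -0.05 to 0.69, -0.04 to 0.70 and -0.18 to 0.62), with the lowest adjusted p at 0.174. With total reads they passed the test at 1 week (0.68, adjusted p = 0.014) and 3 weeks (0.59, adjusted p = 0.0439), and with cardiomyocyte markers at 3 weeks (0.62, adjusted p = 0.037) and 6 weeks (0.60, adjusted p = 0.0473). The male intervals include part of the range measured in females, and whether the sexes differ was not tested.

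The ratio of *Gja1* to *Tjp1* within a library does not depend on the scaling. It was examined after the values were seen and is given with no test. The ratio lay between 2.80 and 3.57 in male controls, between 4.63 and 6.56 in uninduced males and between 6.01 and 11.9 in induced males. In females it lay between 2.87 and 4.60 in controls, between 4.96 and 7.26 in uninduced hearts and between 6.03 and 11.6 in induced hearts. Every uninduced and induced library of both sexes was above every control of its sex, and the uninduced hearts overlapped the lower end of the induced ones.

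*Dsg2* and *Dsc2* encode the desmosomal cadherins, desmoglein 2 and desmocollin 2, whose extracellular domains hold adjacent cells together. *Dsg2* stood at 71.2, 97.8 and 75.1 CPM in male controls, at 41.7, 36.5, 38.8 and 38.1 CPM at 1 week, at 43.2, 47.5, 55.1 and 69.4 CPM at 3 weeks and at 41.4, 52.3 and 61.2 CPM at 6 weeks, below every control throughout. Its log2 fold changes in males were -1.05 ± 0.16, -0.60 ± 0.16 and -0.66 ± 0.17 (adjusted p = 4.92e-05, 0.00874 and 0.00669). The last 2 rested on control replicate 3, without which they were -0.46 (adjusted p = 0.0821) and -0.52 (adjusted p = 0.0527). The 1-week call held with total reads (-0.69) and cardiomyocyte markers (-0.90). The 3-week call held under neither (-0.34 and -0.31, adjusted p = 0.101 and 0.244), and the 6-week call held with total reads (-0.47, adjusted p = 0.0345) and not with cardiomyocyte markers (-0.28, adjusted p = 0.305).

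*Dsc2* stood at 37.4, 33.5 and 29.3 CPM in male controls and at 16.996, 20.7 and 17.4 CPM at 6 weeks. All 11 induced male libraries, at 15.6 to 21.8 CPM, lay below every control. The male log2 fold changes were -0.81 ± 0.15, -0.72 ± 0.15 and -0.84 ± 0.16 (adjusted p = 0.000402, 0.00156 and 0.000547), and all 3 calls held when any 1 library was left out. With total reads the male calls held at each week (-0.46, -0.46 and -0.66, adjusted p = 0.017, 0.0263 and 0.0035). With cardiomyocyte markers *Dsc2* was called at 1 week (-0.66, adjusted p = 0.00646) and not at 3 or 6 weeks (-0.42 and -0.47, adjusted p = 0.0713 and 0.0506).

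In females both cadherin genes were called lower at 3 and 6 weeks on the deposited scale. *Dsg2* stood at 61.9, 64.8, 66.2 and 52.8 CPM in controls and at 41.7, 32.9, 48.8 and 45.04 CPM at 6 weeks, and *Dsc2* at 25.4, 29.6, 34.1 and 24.8 CPM and at 16.9, 19.3, 19.9 and 20.3 CPM. The log2 fold changes of *Dsg2* and *Dsc2* were -0.43 and -0.51 at 3 weeks, each ± 0.15 (adjusted p = 0.0358 and 0.0141), and -0.55 and -0.56 at 6 weeks (adjusted p = 0.00613 and 0.00639). At 1 week the values were -0.36 and -0.39 (adjusted p = 0.083 and 0.0599). The call of *Dsg2* at 3 weeks was lost in 6 of the 8 fits that left out 1 library (-0.44 to -0.37, adjusted p = 0.0588 to 0.106), and that of *Dsc2* without control replicate 3 (adjusted p = 0.0572) or 3-week replicate 3 (adjusted p = 0.0616). Under the other scalings both genes lay between -0.27 and 0.03 in females.

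*Jup* encodes plakoglobin, an armadillo protein shared by desmosomes and adherens junctions. In females it stood at 229, 248, 254 and 228 CPM in controls, at 165, 209, 207 and 210.4 CPM at 1 week, at 175, 162, 169 and 170.3 CPM at 3 weeks and at 165, 174, 196 and 182 CPM at 6 weeks, with no overlap at any week. The log2 fold changes were -0.28, -0.50 and -0.42, each ± 0.09 (adjusted p = 0.0306, 0.000403 and 0.00152). At 1 week the call was lost without 1-week replicate 1 (-0.20, adjusted p = 0.126) or control replicate 2 or 3 (adjusted p = 0.0769 and 0.0783), and the sign turned under both other scalings (0.065 and 0.10, adjusted p = 0.629 and 0.651). The calls at 3 and 6 weeks did not hold either with total reads (-0.15 and -0.02, adjusted p = 0.254 and 0.887) or cardiomyocyte markers (-0.26 and -0.03, adjusted p = 0.285 and 0.899).

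In males *Jup* was lower at 1 week (-0.47 ± 0.14, adjusted p = 0.0141) and 3 weeks (-0.42 ± 0.14, adjusted p = 0.0368), and the value at 6 weeks was -0.25 (95% interval -0.56 to 0.07). Neither call held with total reads (-0.12 and -0.16, adjusted p = 0.507 and 0.412) or cardiomyocyte markers (-0.32 and -0.13, adjusted p = 0.196 and 0.614). Without control replicate 3 the 1-week value was -0.43 (adjusted p = 0.0675). The 3-week call was lost in 6 of 7 fits that left out 1 library (adjusted p = 0.0626 to 0.146). At 6 weeks 1 library, replicate 4, held 298 CPM beside 214 and 166, and without it *Jup* was lower than control there too (-0.47, adjusted p = 0.00737). That library also had the lowest mean correlation with its own group, at 0.968, where all others were at 0.976 or above.

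The remaining desmosomal genes were *Dsp* (desmoplakin) and *Pkp2* (plakophilin 2, which docks desmoplakin and connexin 43 at the membrane). *Dsp* in males stood at 1160.0, 1664 and 1236 CPM in controls and at 971, 1169 and 698 CPM at 6 weeks, with a log2 fold change of -0.53 ± 0.19 (adjusted p = 0.0454), which was -0.34 with total reads and -0.15 with cardiomyocyte markers (adjusted p = 0.292 and 0.582). That call was lost in 4 of 6 fits that left out 1 library, without control replicate 3 (-0.37, adjusted p = 0.227) or 4 (adjusted p = 0.0608) and without 6-week replicate 1 (adjusted p = 0.0664) or 4 (-0.33, adjusted p = 0.209). At 1 week the value was -0.46 (adjusted p = 0.0516), and without control replicate 1 it passed the test (-0.57, adjusted p = 0.0437). *Dsp* in females lay within 0.08 of control on the log2 scale at every week, with 95% intervals from -0.44 to 0.40. *Pkp2* did not pass the test at any week in either sex, and its values lay between -0.13 and 0.17, with 95% intervals from -0.31 to 0.39. With total reads *Pkp2* was called higher at each week in females (0.42, 0.22 and 0.33, adjusted p = 0.000441, 0.0342 and 0.0022), so that the last 2 values turned sign, and at 1 week in males (0.53, adjusted p = 0.00249). The median of all genes on that scale was 0.281, 0.295 and 0.335 in females and 0.33 at 1 week in males. The female *Pkp2* values at 3 and 6 weeks thus lay below or close to that of the typical gene.

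Of the adherens junction genes, *Cdh2* did not pass the test in either sex (-0.07 to 0.23, 95% intervals from -0.33 to 0.50). It was called higher under both other scalings at 1 and 6 weeks in females (0.55 to 0.61) and at 3 weeks in males (0.44 and 0.47). *Ctnna3*, which binds N-cadherin complexes to actin in heart muscle, was lower in males at 1 week (-0.50 ± 0.15, adjusted p = 0.0141) and 6 weeks (-0.52 ± 0.16, adjusted p = 0.0209). Both calls rested on few libraries: without control replicate 3 the values were -0.38 (adjusted p = 0.104) and -0.40 (adjusted p = 0.123), and the second was also lost without control replicate 1 (adjusted p = 0.0618) or 6-week replicate 4 (adjusted p = 0.0814). *Ctnna3* in females gave 0.12, -0.18 and -0.10, with none called on the deposited scale. Under the other scalings the 2 male values lay between -0.35 and -0.14 and were not called, and the female value at 1 week was called higher (0.46 and 0.50).

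*Gja5* encodes connexin 40, which in the adult heart belongs to atrial muscle, the conduction system and arterial endothelium. In males it stood at 8.77, 5.87 and 8.04 CPM in controls and at 9.83, 7.94 and 11.4 CPM at 6 weeks, and no week was called on the deposited scale (0.04, 0.23 and 0.35, lowest adjusted p = 0.162). With cardiomyocyte markers the male value at 6 weeks was called (0.73, adjusted p = 0.0154). In females it stood at 5.68, 7.02, 8.36 and 7.93 CPM in controls and at 9.16, 20.6, 8.46 and 8.42 CPM at 6 weeks, a log2 fold change of 0.56 ± 0.21 (adjusted p = 0.039), and 0.93 and 0.95 with total reads and cardiomyocyte markers. The female value at 1 week, 0.34 (adjusted p = 0.253), was called under both of those scalings (0.66 and 0.72, adjusted p = 0.0218 and 0.035). The library at 20.6 CPM, replicate 2, held 345.7 CPM of *Myl7* and 382.8 CPM of *Myl4*, the atrial myosin light chains, where the other female libraries at 6 weeks held at most 0.527 and 1.51 CPM. At 1 week replicate 2 held 52.3 and 67.0 CPM of the same genes and the highest *Gja5* of its group, 11.9 CPM.

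Without both of these libraries *Gja5* at 6 weeks was 0.26 higher than control on the log2 scale (adjusted p = 0.141). The call was also lost without control replicate 1 (0.45, adjusted p = 0.118) or 2 (0.55, adjusted p = 0.0726). With these libraries left out, 3, 5 and 5 of the 10 genes were called in females at 1, 3 and 6 weeks. Summed arterial endothelial markers were 96.6 to 108.9 CPM in female controls and 89.9 to 113.7 CPM at 6 weeks, and summed conduction markers were 19.1 to 35.0 CPM and 16.8 to 23.1 CPM. The part of atrial tissue in the *Gja5* values was not tested.

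**Figure D4:**
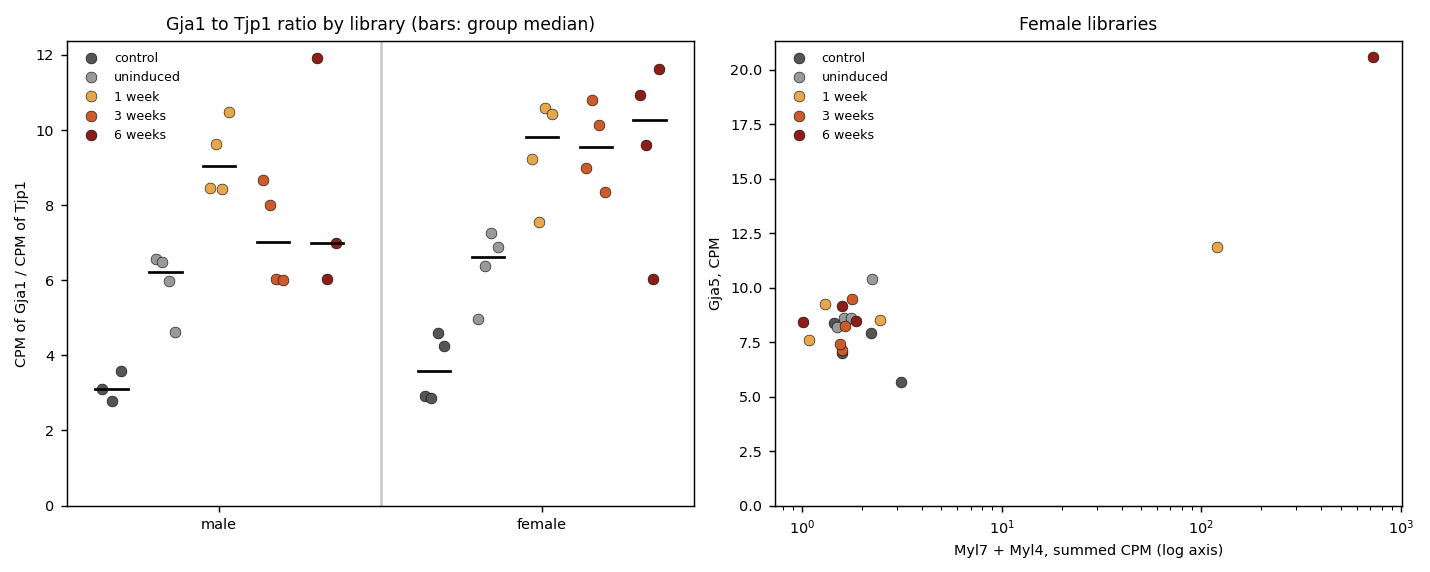
Left, the ratio of *Gja1* to *Tjp1* CPM in each library (points) with the group median (bars), linear axis from 0. Right, *Gja5* CPM against the summed CPM of the atrial genes *Myl7* and *Myl4* on a log axis in the 20 female libraries. The median ratio was 3.10 in male and 3.58 in female controls and at least 6.99 in every induced group, and the library with the highest *Gja5*, 20.6 CPM, held 728.6 CPM of atrial markers.

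In uninduced hearts, which had a low level of *Il11*, none of the 10 genes was called against control in either sex by limma, where 0.597% of male and 2.87% of female genes were. At an unadjusted p under 0.05 there were 2 in males and 1 in females. Of all genes, 1789 of 16931 in males and 2605 of 16956 in females met that cut. On the recovered reads edgeR called none of the 10, and DESeq2 called 1 in each sex. Over all genes edgeR called 100 in males and 515 in females, and DESeq2 275 and 789. Values of 3 genes in males and of 0 in females did not overlap with control, against 14.9% and 8.24% of all genes. *Tjp1* in uninduced males stood at 69.6, 61.6, 63.7 and 86.4 CPM, below every control, at -0.63 ± 0.16 (adjusted p = 0.0912). Without uninduced replicate 4 it passed the test (-0.74, adjusted p = 0.0435). *Gja1* in uninduced females stood at 349, 433, 358 and 331 CPM, at 0.56 ± 0.16 (adjusted p = 0.0737), and passed the test without control replicate 3 (0.75, adjusted p = 0.00387). *Dsg2* in uninduced males was at -0.43 (95% interval -0.76 to -0.10, adjusted p = 0.313).

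Set against uninduced hearts, 3, 1 and 2 of the 10 genes were called in induced males at 1, 3 and 6 weeks, all lower, where 18.8%, 16.1% and 20.4% of all genes were called and 6.66%, 5.46% and 7.4% were called lower. *Dsc2* was called at each week (-0.53, -0.44 and -0.57, adjusted p = 0.0107, 0.0357 and 0.0107), *Tjp1* at 1 and 6 weeks (-0.59 and -0.48, adjusted p = 0.00836 and 0.0391) and *Dsg2* at 1 week (-0.62, adjusted p = 0.00529). In females the counts were 0, 2 and 2, all lower, where 12.6%, 16.7% and 22.8% of all genes were called and 4.26%, 6.15% and 9.08% lower. The female genes were *Jup* (-0.42 and -0.34, adjusted p = 0.00359 and 0.0129) and *Tjp1* (-0.44 and -0.47, adjusted p = 0.0466 and 0.0248) at 3 and 6 weeks. Without the 2 female libraries that held atrial markers, the counts at 3 and 6 weeks were 1 and 1. For the count of 0 at 1 week, 2 genes had an unadjusted p under 0.05, where 4379 of 16956 genes did. There edgeR and DESeq2 called none of the 10, against 2135 and 2434 of all genes. With a log2 fold change of at least 1 required, none of the 10 was called at any week in either sex, where 4.23%, 4.29% and 5.6% of male and 3.07%, 4.25% and 5.63% of female genes were. These comparisons and those with control share the induced libraries.

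Between the induced weeks none of the 10 genes was called by limma, edgeR or DESeq2 in either sex. All-gene calls there ran from 0% between 6 and 3 weeks in both sexes to 0.165% (male) and 1.03% (female) between 6 and 1 weeks, with 0.0177% and 0.218% between 3 and 1 weeks. At an unadjusted p under 0.05 there were 3, 1 and 1 genes in males and 3, 0 and 0 in females, for 3 against 1, 6 against 1 and 6 against 3 weeks. Of all genes, 2710, 2615 and 1072 of 16931 in males and 1699, 2137 and 2572 of 16956 in females met that cut. *Dsg2* in males was among the 3 at 3 against 1 week, with libraries at 43.2 to 69.4 CPM against 36.5 to 41.7 CPM. The share of all genes without overlap between weeks is not reported here.

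Within groups, the junction genes varied together to different degrees. Over the deviations of the 38 libraries from their group means on the log2 scale, Pearson's r was 0.68 for *Dsp* and *Tjp1*, 0.65 for *Cdh2* and *Ctnna3*, 0.60 for *Pkp2* and *Cdh2* and 0.58 for *Dsg2* and *Dsc2*. *Gja5* went the other way, with r = -0.51 against *Dsp* and -0.46 against *Ctnna3*. These are descriptions over libraries that share their scaling factors, and include the 2 libraries with atrial markers.

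Over the same 38 libraries, each centred on the control mean of its sex, the genes whose pattern was most like that of *Gja1* among 10628 genes were *Ets2*, *Fam111a*, *Fam13c*, *Asap3* and *Arl4c* (r = 0.80 to 0.75). For *Gja5* they were *Tlnrd1*, *Pea15a*, *Xbp1*, *Srebf2* and *Pgam1* (r = 0.79 to 0.69). *Tjp1* was added to this comparison after the values were seen: its pattern was most like that of *Erc1*, *Ncor1* and *Arhgap21* (r = 0.94 to 0.92), and *Dsg2* and *Dsc2* stood 39th and 80th (r = 0.87 and 0.84).

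The promoters of *Tjp1*, *Jup* and *Gja1* are shown because these are the members called in all 3 induced weeks in females, the first 2 lower and the last higher. Of the 10 genes, 6 had an entry among RefSeq promoters (GRCm38.p6), and each was placed by an exact match in GRCm39. From the 250 bases before each RefSeq start, the stretch up to the first base of the gene's own annotated exons in that window is printed. It runs 5′ to 3′ on the gene's strand, with matches to the GC box (GGGCGG, read on the other strand as CCGCCC) in capitals. The stretches of *Tjp1* and *Jup* lie inside the annotated gene, downstream of its annotated 5′ end. That of *Gja1* lies directly before the annotated gene.
*Tjp1*, chr7:65021036-65021242, minus strand: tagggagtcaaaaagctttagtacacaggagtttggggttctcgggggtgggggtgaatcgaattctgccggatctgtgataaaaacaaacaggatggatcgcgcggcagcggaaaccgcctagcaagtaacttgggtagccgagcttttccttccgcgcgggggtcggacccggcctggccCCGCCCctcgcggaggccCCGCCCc
*Jup*, chr11:100288670-100288866, minus strand: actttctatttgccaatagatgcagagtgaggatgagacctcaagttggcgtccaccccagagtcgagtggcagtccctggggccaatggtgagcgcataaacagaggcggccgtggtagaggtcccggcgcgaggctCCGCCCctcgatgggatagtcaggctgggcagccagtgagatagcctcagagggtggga
*Gja1*, chr10:56253146-56253240, plus strand: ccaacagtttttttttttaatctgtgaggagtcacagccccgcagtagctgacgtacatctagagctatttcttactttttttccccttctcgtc

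In the 250 bases before the RefSeq start, *Tjp1* held 2 GC boxes and *Jup* held 2, of which 1 lies in the stretch shown, where 32.7% of 32851 promoters held at least 1. Among the other members with an entry, *Dsp* held 4, and *Gja5* and the first entry of *Ctnna3* held 1 each. Of these, *Dsp* and *Ctnna3* were called lower in males at 1 or more weeks, and *Gja5* was called lower in neither sex. Whether the GC box goes with a fall was not tested. *Gja1* held no GC box and 1 match to AP-1 (TGANTCA, in 6.75% of promoters), which lies beyond the stretch shown. No window of the 6 members matched the STAT motif TTCNNNGAA, which 7.02% of promoters held. The stretch of *Gja1* was 42.1% G or C, those of *Jup* and *Tjp1* 60.4% and 61.4%. Such matches describe letters in a window and were not tested for binding.

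Other proteins of the disc were described from a list of 33 genes that holds none of the 10, of which 31 were tested. In males 13, 11 and 15 of them were called at 1, 3 and 6 weeks (3 higher at each week and 10, 8 and 12 lower), and in females 6, 12 and 12 (4, 3 and 3 higher and 2, 9 and 9 lower), to be read against the shares of all genes given above. Their median log2 fold change was -0.28, -0.23 and -0.33 in males and -0.00, -0.18 and -0.11 in females. Most of these falls did not outlast a change of scaling: 0, 0 and 4 of the male and 0, 1 and 1 of the female falls were called with total reads, and 6, 0 and 1 and 0, 1 and 1 with cardiomyocyte markers. Without male control replicate 3 the male count at 3 weeks was 7, and without female 3-week replicate 3 the female count at 3 weeks was 7. All of the rises against control at 1, 3 and 6 weeks were called under both other scalings, which raised the median of all genes and so favoured rises over falls.

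*Panx1*, which encodes the membrane channel pannexin 1, stood at 1.27, 1.44 and 1.81 CPM in male controls and at 6.82, 8.51 and 8.61 CPM at 6 weeks, and in females at 1.33, 1.21, 1.501 and 1.44 CPM and at 9.91, 12.7, 11.5 and 10.8 CPM. The log2 fold changes were 2.04, 1.86 and 2.08 in males and 1.94, 2.26 and 2.64 in females (highest adjusted p = 1.73e-07), and 0.86 in uninduced females (adjusted p = 0.0146), a call lost with cardiomyocyte markers (adjusted p = 0.089) and in 2 of 8 fits that left out 1 library. Of its annotated exon bases, 13.9% overlap a gene on the other strand. *Tmem43*, a nuclear envelope protein whose mutation causes arrhythmogenic cardiomyopathy, was higher at 3 and 6 weeks in males (0.43 and 0.55) and at each week in females (0.40, 0.38 and 0.61), with 27.9% of its exon bases overlapping a neighbour on the other strand. Its male call at 3 weeks was lost in 5 of 7 fits that left out 1 library, and its female calls at 1 and 3 weeks were kept in 7 and 6 of 8.

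Of the other connexins, *Gjc1* (connexin 45) and *Gja4* (connexin 37) were not called at any week on the deposited scale, while with total reads *Gjc1* was called higher at each week in females (0.32, 0.59 and 0.37) and both at 1 week in males (0.74 and 0.76). The medians of all genes with total reads were 0.281, 0.295 and 0.335 in females and 0.33 at 1 week in males. *Gja3* (connexin 46) was lower at 6 weeks in males (-0.34, adjusted p = 0.046), a call kept in 1 of 6 fits that left out 1 library and lost under both other scalings (-0.16 and 0.03, adjusted p = 0.487 and 0.887).

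Among catenins, linkers and membrane proteins, *Ank3* (ankyrin G, a membrane adaptor of the disc) was lower at every week in both sexes, from 66.2 to 84.2 CPM in male controls to 35.5 to 46.2 CPM at 6 weeks (-0.82, adjusted p = 0.000123) and from 51.3 to 62.0 to 29.3 to 40.9 CPM in females (-0.66, adjusted p = 0.000191). The male value at 6 weeks held under total reads (-0.63, adjusted p = 0.00513) and cardiomyocyte markers (-0.44, adjusted p = 0.0395), and that at 1 week with cardiomyocyte markers alone (-0.52, adjusted p = 0.0145; -0.32 and adjusted p = 0.0915 with total reads). The male value at 3 weeks and all 3 female values were not called under either (-0.27 to -0.05). Its male call at 3 weeks was kept in 6 of 7 fits that left out 1 library (highest adjusted p = 0.0522). *Pkp4* (plakophilin 4) was lower at each week in females (-0.45, -0.78 and -0.74), and its values at 3 and 6 weeks held under both other scalings (-0.54 to -0.34, highest adjusted p = 0.0339). *Ctnna1* (αE-catenin), *Myzap* and *Lmo7*, all part of the area composita, were lower at 6 weeks in both sexes (-0.71 to -0.46 on the deposited scale). *Vcl* (vinculin) and *Afdn* (afadin) were lower at 6 weeks in males (-0.73 and -0.82), and in females their values were -0.11 and -0.32 (adjusted p = 0.712 and 0.0943). Of the exon bases of *Vcl*, 24.6% overlap a gene on the other strand. With cardiomyocyte markers none of the 6-week falls of *Ctnna1*, *Myzap*, *Lmo7*, *Vcl* and *Afdn* was called. The female falls were not called with total reads either, and the male values of these genes with total reads are not reported here. *Des* (desmin), the filament that desmosomes anchor, was higher at 1 week in males (0.68, adjusted p = 0.00338) and not called elsewhere on the deposited scale, and with total reads it was also called higher at each week in females (0.44, 0.45 and 0.57). Beside these female values stand all-gene medians of 0.281, 0.295 and 0.335.

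**Figure D5:**
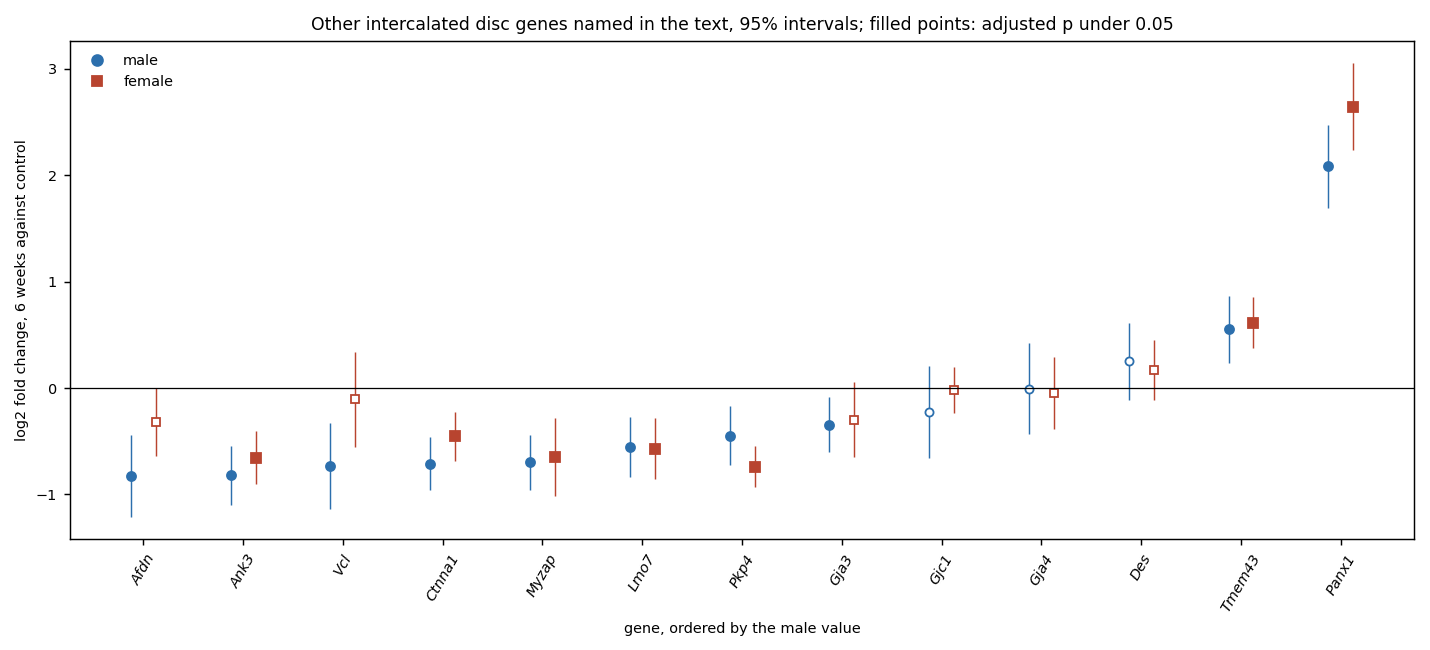
Log2 fold change at 6 weeks against control with 95% intervals for the other intercalated disc genes named in the text, ordered along the horizontal axis by the male value, with males as circles and females as squares. Filled points have an adjusted p under 0.05. *Panx1* (2.08 and 2.64) stands apart at the high end, and *Afdn* (-0.82) and *Ank3* (-0.82) are at the low end in males.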

How the data were processed

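Hearts of 40 mice were sequenced as polyA libraries. The authors aligned reads to GRCm39 with STAR, counted them with featureCounts and deposited signal values in CPM with a scaling factor per library, 1 table for each sex. The rule by which they removed low genes is not given in the sources used here. Whole reads were recovered from 100% of the deposited values (tolerance 0.001 of a read). The planned test assumed CPM, and the unit was taken as scaled signal.

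All groups of a sex entered 1 fit of log2(CPM + 0.5) by limma 3.58.1 (R 4.3.3, variance trend on), for genes at 0.5 or more in at least 3 libraries (16931 male, 16956 female), with Benjamini-Hochberg adjustment. Fold changes on this scale understate changes of low genes. Errors are SE from the fit. On the recovered reads edgeR 4.0.16 called 5672, 3587 and 4666 male and 4747, 5224 and 7068 female genes against control at 1, 3 and 6 weeks, and DESeq2 1.42.0 was a further alternative. The code was tested on simulated data.

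The members and lists were chosen with earlier results of these data known. The text names every member, genes of the disc and marker lists (some genes of the disc list are counted but not reported here), and the 5 genes most like *Gja1* and *Gja5*. Alternatives were median-of-ratios scaling, pseudocounts of 0.1 and 2, a filter at 1 in 4 libraries, no filter, scaling to cardiomyocyte markers, a fit of only the 2 groups compared, a replicate block, a call that also needs a log2 fold change of at least 1, and each library left out. Scaling to total reads, and leaving out libraries with over 100 CPM of atrial markers, were added after the data were seen. Exon lengths and overlaps are from GENCODE for GRCm39. In the 54 pairs of replicates the lowest chi-square per gene was 6.82, so no library was a copy. Replicates are separate mice.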

Additional observations from a re-analysis of the deposited data

Results flagged for a closer look

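In 7 of 80 groups of 4 libraries, 1 library stood apart from the other 3 by Dixon's test, which chance alone gives in about 1 group of 20. For *Gja5* it was female 6-week replicate 2, at 20.58 CPM against 8.416 to 9.157 CPM, the library with 728.6 CPM of atrial markers. For *Tjp1* it was female 6-week replicate 3, at 55.6 CPM against 37.45 to 38.79 CPM. *Jup* in female 1-week replicate 1 was at 165.0 CPM against 206.6 to 210.4 CPM, and *Pkp2* in female 1-week replicate 2, the other library with atrial markers, at 115.7 CPM against 127.2 to 129.0 CPM. *Dsc2* in male 3-week replicate 1 was at 15.73 CPM against 21.59 to 21.79 CPM. *Ctnna3* was at 13.5 CPM in male uninduced replicate 1 against 14.59 to 14.8 CPM, and at 13.98 CPM in female 1-week replicate 1 against 12.92 to 13.06 CPM.

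In 2 of 40 pairs of a gene and a comparison with control, every library of one sex lay on the opposite side of its control mean from every library of the other sex. *Gja5* in uninduced hearts was at -0.07 in males and 0.30 in females, a male minus female difference of -0.365 (log2). *Ctnna3* at 1 week was at -0.50 in males and 0.12 in females, a difference of -0.626. These differences were not tested, since the sexes were scaled in separate tables.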

How the results depend on the processing

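Of 80 log2 fold changes of the 10 genes against control, 28 were called. The pseudocounts and the absence of a filter on low values changed none of these calls, and the stricter filter and median-of-ratios scaling each added 1. On the recovered reads edgeR added 2 calls and DESeq2 added 4, with none lost, and a fit of only the 2 groups lost 3 and added 2. With the sign kept, total reads lost 15 calls and cardiomyocyte markers lost 19, and each added 10. The sign turned in 20 of the 80 values with total reads and in 17 with cardiomyocyte markers, most of them called on neither scale. Values called on either scale that turned were *Pkp2* in females at 3 and 6 weeks with total reads (0.22 and 0.33) and *Jup* in females at 1 week with total reads (0.065) and with cardiomyocyte markers (0.10). Both scalings also raised the median of all genes at 1, 3 and 6 weeks, as given above, and the cause of each turn was not tested.

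With total reads, counts of the 10 genes called moved in males to 3 at 6 weeks, all lower, and against uninduced hearts to 1, 0 and 1 at 1, 3 and 6 weeks, all lower. In females they moved to 5 and 2 at 1 and 3 weeks, 1 in uninduced hearts, and 2, 0 and 1 against uninduced hearts, all of these higher and none lower. The 4 called at 6 weeks were also all higher. Of all genes, 41.7%, 25.2% and 24.8% in males and 44.7%, 45.5% and 55.4% in females were called with total reads against control at 1, 3 and 6 weeks. In uninduced females 4.45% were. Males had 2 genes called higher at 1 and at 3 weeks with total reads and none on the deposited scale. With cardiomyocyte markers the counts of the 10 genes moved in males to 3 at 1 week, all lower, to 2 at 3 weeks, both higher, and to 0, 2 and 1 against uninduced hearts, all higher. At 6 weeks 3 male genes were called higher and 1 lower. In females the counts moved to 5, 1 and 3, and to 2, 0 and 1 against uninduced hearts, all higher and none lower. Of all genes, 27.6%, 26.6% and 35.8% in males and 39.3%, 26.7% and 47.4% in females were called with cardiomyocyte markers against control. Shares of all genes against uninduced hearts are not reported here for these scalings, so those counts cannot be set against them. With only the 2 groups in the fit the counts of the 10 genes moved in males to 3 at 6 weeks and 5 and 2 against uninduced hearts at 1 and 3 weeks, and in females to 5 at 1 week and 1 and 0 against uninduced hearts at 3 and 6 weeks. Shares of all genes under the fit of 2 groups are not reported here, so counts under it, here and below, cannot be set against them. DESeq2 called 1 gene in uninduced hearts of each sex, where it called 275 male and 789 female genes over all. Without the libraries with atrial markers the female counts against uninduced hearts were 1 and 1 at 3 and 6 weeks. With a log2 fold change of at least 1 required, 2, 0 and 1 male and 0, 0 and 0 female genes were called, and 0 against uninduced hearts.

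The other disc genes called moved in males to 8, 4 and 8 with total reads (8, 4 and 4 higher), to 4 and 6 at 3 and 6 weeks with cardiomyocyte markers (4 and 5 higher) and to 9 at 6 weeks with only 2 groups. In females they moved to 14 at 1 week with total reads (14 higher), to 13 and 6 at 1 and 3 weeks with cardiomyocyte markers (13 and 5 higher) and to 12 at 1 week with only 2 groups, and in uninduced hearts to 1 with cardiomyocyte markers, only 2 groups or a pseudocount of 2. With a log2 fold change of at least 1, 2 were called at each week in both sexes and 0 in uninduced females.

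With each library left out, 3 to 6, 2 to 4 and 2 to 5 of the 10 genes were called in males, 1 to 3, 3 to 5 and 5 to 6 in females, and 0 to 1 in uninduced hearts of each sex. Against uninduced hearts the ranges were 2 to 3, 0 to 1 and 1 to 4 in males and 0 to 1, 1 to 3 and 1 to 4 in females, and between weeks 0 to 0. The other disc genes ranged over 12 to 15, 7 to 12 and 12 to 16 in males, 5 to 7, 7 to 11 and 10 to 12 in females, and 1 to 1 and 1 to 3 in uninduced hearts.

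On average, replicate numbers did not pair the libraries (mean correlation of deviations 0.013 in males and 0.025 in females). Single pairs with the same number ran from -0.134 to 0.256 in males and from -0.342 to 0.563 in females. Pairs with different numbers had means of -0.004 and -0.009. With the replicate block 5, 3 and 4 of the 10 genes were called in males and 3, 5 and 6 in females, and the calls lost were *Dsp* in males at 6 weeks (adjusted p = 0.052) and *Jup* in males at 3 weeks (adjusted p = 0.0511). With the block 15, 11 and 14 other disc genes were called in males and 8, 13 and 11 in females. Of all genes, 30.4%, 19.8% and 26.5% in males and 28.7%, 31.4% and 42.8% in females were called with the block at 1, 3 and 6 weeks.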

Other observations

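The 2 male libraries whose labels contradict each other entered no comparison. The library titled as control and described as 6 weeks held 65.1 CPM of *Tjp1*, 48.5 CPM of *Dsg2*, 19.7 CPM of *Dsc2*, 220.6 CPM of *Jup*, 397 CPM of *Gja1*, 10.01 CPM of *Gja5* and 871 CPM of *Dsp*. The library titled as 6 weeks and described as control held 81.1 CPM of *Tjp1*, 77.2 CPM of *Dsg2*, 32.4 CPM of *Dsc2*, 275 CPM of *Jup*, 263 CPM of *Gja1*, 6.13 CPM of *Gja5* and 1241 CPM of *Dsp*.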
